A study of Mus musculus with 8 samples.

Results

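The 46 genes described here encode the machinery that starts translation in the cytoplasm and binds the poly(A) tail. They comprise the initiation factors eIF1 to eIF6, the kinases that act on eIF2, the inhibitors of eIF4E, and 4 genes for poly(A)-binding proteins or their partner. They were listed by gene symbol, a rule that uses no measured value, though the list was chosen with earlier results of these data known. Their probes were found through the RefSeq accession of each probe. All 46 were found, on 65 probes, among 20284 genes named on the array. Levels were measured in total RNA of whole mouse skin on 8 one-colour oligonucleotide arrays. Of these, 4 held skin labelled DTG and 4 held skin labelled Control, and the comparison asks what differs in DTG skin. The series title names overexpression of Musashi1 in skin, and the labels do not spell out DTG. The strain, the age, the promoter of any transgene and the genotype of the Control animals are not given in the sources used here. All 8 samples are labelled male. The labels do not say whether the samples of a group came from separate animals, so the p-values rest on a spread between samples that may be technical.

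Translation of most mRNAs begins at the cap. eIF4E binds the cap, eIF4G bridges eIF4E to the helicase eIF4A, and eIF3 joins this assembly to the small ribosomal subunit, which carries the initiator tRNA on eIF2 and scans for a start codon. The GTP bound to eIF2 is spent at the start codon and is restored by eIF2B, a step that stress-activated kinases block by phosphorylating the alpha subunit of eIF2. Poly(A)-binding protein holds the tail of the mRNA and touches eIF4G, and Musashi1 is known to compete with eIF4G for poly(A)-binding protein on its target mRNAs.

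A level is the log2 signal of a probe relative to the 75th percentile of its array, and a change is DTG minus Control on that log2 scale. A gene is called where the limma p-value, adjusted over 17724 genes, is under 0.05. Msi1, which encodes Musashi1, had levels of 4.00, 3.85 and 4.16 on DTG 2, 3 and 4, against -2.26, -5.92, -1.48 and -1.56 on the Control arrays. Its change was 6.81 (SE 1.02, adjusted p = 0.00292), with the spot on DTG 1 left out for an outlier flag. Xist, the RNA of the inactive X chromosome, was high on DTG 1, 3 and 4 and on Control 2 and 4 and low on the other arrays, so the male label does not match 5 arrays. The skin label was borne out by keratinocyte genes, of which 5 of 6 listed were tested and above background on all 8 arrays, with a mean level of 3.82 to 4.16 on DTG and 4.23 to 4.66 on Control arrays. Flg was not tested. Muscle genes were also abundant, at 4.15 to 4.26 on DTG and 4.36 to 4.52 on Control arrays. Spots well above background made up 69.8% ± 1.23 of spots on DTG and 82.7% ± 2.64 on Control arrays (SD, n = 4 each, exact two-sided permutation p = 0.0286, the smallest 4 against 4 can give, and 0.0381 after adjustment over 4 measures). The negative-control spots read 4.46 ± 0.19 on DTG and 2.85 ± 0.37 on Control arrays in log2 signal (SD, n = 4 each, exact two-sided permutation p = 0.0286, adjusted 0.0381). All 8 arrays shared a slide and a scan time, with DTG on slide row 2 and Control on row 1, so the row on the slide cannot be told apart from the group.

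Most initiation genes were close to the Control level in DTG skin. Of the 46 genes, 4 rose (Eif5, Eif2b2, Eif2b3 and Eif2ak1), 4 fell (Eif5b, Eif2ak4, Eif4g3 and Pabpc4) and 38 did not pass. The called share was 17.4%, against 32.5% of all genes tested. By direction, 11.2% of all genes were called higher and 21.3% lower. These genes are brightly expressed: 40 of 46 (87.0%) had a mean level above the 75th percentile, against 46.8% of all genes tested. Of those 40, 2 rose and 2 fell, against a called share of 30.1% of the 8286 genes above that level. At an unadjusted p under 0.05 the count was 12 of 46, against 7850 of all 17724 genes tested. No change reached 1 on the log2 scale, and the changes ran between -0.89 for Eif5b and 0.70 for Paip1, which did not pass. Their median was 0.01, against -0.15 over all genes, and 35 of 46 lay above that all-gene median. The DTG arrays lay wholly above the Control arrays for 3 genes (Eif2b2, Eif2ak1 and Eif5a) and wholly below for 7 (Eif5b, Eif2ak4, Eif3a, Eif3b, Eif4g3, Pabpc1 and Pabpc4), against 34.5% of all genes whose groups did not overlap. The median SE of a change was 0.11 for these genes and 0.14 for all genes. Among markers of skin cell types, 3 of 5 keratinocyte, 4 of 5 adipocyte, 2 of 4 Schwann cell and 2 of 4 melanocyte genes were called lower. The count was 1 each of 5 fibroblast, 5 muscle and 4 leukocyte genes, near the 21.3% of all genes called lower. It was 0 of 4 for endothelial genes. The median change was 0.13 for leukocyte and 0.23 for endothelial genes, and below 0 for each other list. The mean adipocyte level was 1.18 to 1.49 on DTG and 1.18 to 1.89 on Control arrays, and the mean Schwann cell level was -1.19 to -0.93 on DTG and -0.69 to -0.46 on Control arrays. No marker gene was called higher, and their part in the changes of initiation genes was not tested. In whole tissue, fewer cells of a type and less RNA per cell cannot be told apart.

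**Figure D1:**
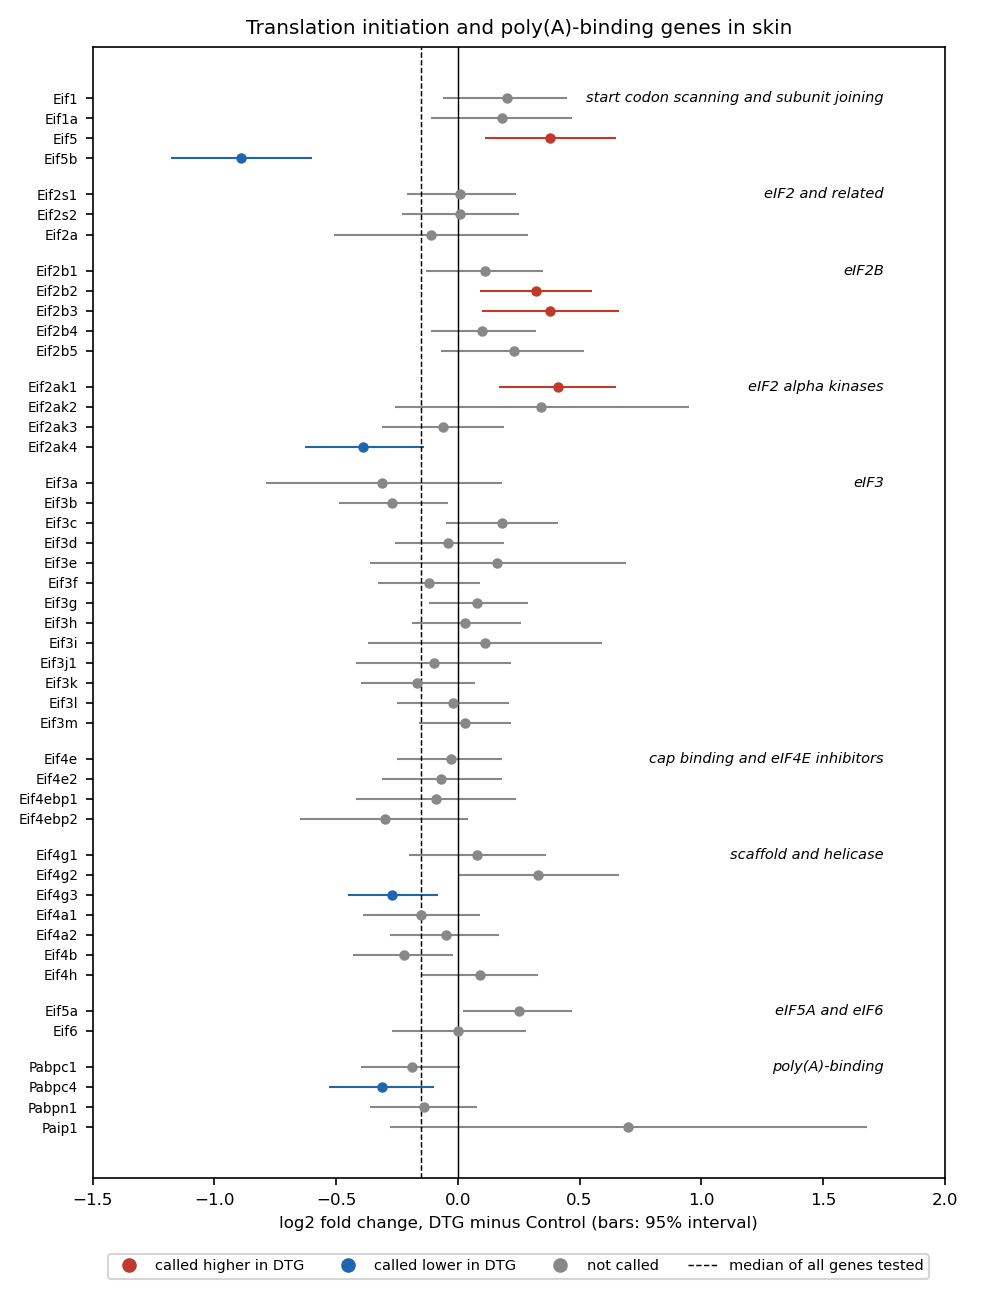
Change of each of the 46 genes (horizontal axis, log2, DTG minus Control) with its 95% interval, grouped by factor. Red points are called higher, blue points called lower, grey points not called, and the dashed line is the all-gene median of -0.15. Only Eif5b lies far from 0 among the called genes.

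The calls that held best were Eif2ak1 and Eif5b. Over 21 alternative settings, Eif2ak1 was called in 21 and Eif5b in 20. The other 6 were called less often: Eif5 in 12, Eif2ak4 in 11, Eif2b2 in 10, Pabpc4 in 9, Eif2b3 in 8 and Eif4g3 in 7. When each array was left out in turn, Eif2ak1 and Eif5b were called in 8 of 8 fits, Eif2ak4 in 3, Eif5 in 2 and the other 4 in 1 each. With slide column as a block, the called genes were 1 higher, Eif2ak1 (0.41, adjusted p = 0.0372), and 1 lower, Eif5b (-0.89, adjusted p = 0.0166). A slide column held 1 DTG and 1 Control array, too few for a value within each.

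Among the factors of start codon scanning and subunit joining, Eif5 rose, Eif5b fell, and the other 2 of 4 did not pass. Eif5b encodes the GTPase that joins the large ribosomal subunit to the small one at the start codon. Its level was -4.75, -4.97, -4.58 and -4.67 on DTG arrays 1 to 4, against -3.96, -3.60, -3.82 and -4.01 on Control arrays 1 to 4. Every DTG array was below every Control array, and the change was -0.89 (SE 0.13, 1.86-fold lower, adjusted p = 0.00167). On arrays scaled to the spike-in spots the change was -0.43, short of the threshold (adjusted p = 0.0608). Eif5b was the dimmest of the 46 genes. It was well above background on all 8 arrays, and the part of the higher negative-control signal of the DTG arrays in its change was not tested. Eif5 encodes the protein that makes eIF2 spend its GTP once the start codon is found. Its level was 3.53, 3.49, 3.29 and 3.59 on DTG arrays, against 3.29, 2.93, 3.20 and 2.95 on Control arrays. The lowest DTG array equalled the highest Control array, and the change was 0.38 (SE 0.12, adjusted p = 0.0380). A dimmer Eif5 probe read 0.00, so the increase rests on 1 of 2 probes. Eif1 and Eif1a, whose proteins keep the scanning ribosome open, read 0.20 (95% interval -0.06 to 0.45) and 0.18 (-0.11 to 0.47).

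The bases before the Eif5b start site are shown because Eif5b had the largest called change of the group. RefSeq (GRCm38.p6) places these 120 bases at chr1:37997890-37998009 on the forward strand.
Eif5b: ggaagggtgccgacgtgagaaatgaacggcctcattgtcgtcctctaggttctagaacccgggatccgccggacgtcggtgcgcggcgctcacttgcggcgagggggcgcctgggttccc
None of the motifs searched below was found in its 300-base window.

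The genes of eIF2 itself did not pass, while 2 of the 5 eIF2B genes rose. Eif2s1 and Eif2s2, which encode the alpha and beta subunits of eIF2, each read 0.01, with 95% intervals of -0.21 to 0.24 and -0.23 to 0.25. A dimmer Eif2s1 probe read -0.29 (SE 0.12, limma adjusted p = 0.0908 over all kept probes), so the value of Eif2s1 rests on its brightest probe. Eif2a, an initiation factor distinct from the eIF2 complex despite its name, read -0.11 (-0.51 to 0.29). All 5 eIF2B genes read above 0, between 0.10 and 0.38, with a median of 0.23. Eif2b2 encodes the beta subunit, one of the regulatory subunits that sense phosphorylated eIF2. Its level was 1.8, 1.61, 1.49 and 1.68 on DTG arrays, against 1.33, 1.37, 1.42 and 1.19 on Control arrays. The groups did not overlap (change 0.32, SE 0.10, adjusted p = 0.0388). Eif2b3 encodes the gamma subunit, which belongs to the catalytic part of the complex. Its level was 0.24, 0.26, -0.10 and 0.31 on DTG arrays, against -0.41, -0.21, -0.06 and -0.14 on Control arrays. DTG 3 fell inside the Control range, and the change was 0.38 (SE 0.12, adjusted p = 0.0436). A second, dimmer Eif2b3 probe read 0.53 and did not pass. The other 3, Eif2b1, Eif2b4 and Eif2b5, read 0.11, 0.10 and 0.23.

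The 4 kinases of eIF2 went different ways: Eif2ak1 rose, Eif2ak4 fell, and Eif2ak2 and Eif2ak3 did not pass. Eif2ak1 encodes HRI, the kinase activated when haem is short. Its level was -1.10, -1.19, -1.12 and -1.21 on DTG arrays, against -1.39, -1.64, -1.45 and -1.78 on Control arrays. Every DTG array was above every Control array (change 0.41, SE 0.11, 1.33-fold, adjusted p = 0.0200). Across the 21 alternative settings the change was 0.34 to 0.88. Eif2ak4 encodes GCN2, the kinase activated by uncharged tRNA when amino acids are short. Its level was -3.46, -3.47, -3.27 and -3.25 on DTG arrays, against -3.17, -2.83, -2.98 and -2.91 on Control arrays. Every DTG array was below every Control array (change -0.39, SE 0.11, adjusted p = 0.0251), but on the spike-in scale the change was 0.08 and did not pass. Eif2ak2, which encodes the double-stranded RNA kinase PKR, read 0.34 with a wide interval (-0.26 to 0.95), and Control 2 lay at -0.11 with the other Control arrays between -1.28 and -1.01. Without Control 2, Eif2ak2 was called higher (0.60, adjusted p = 0.0445). Eif2ak3, which encodes the endoplasmic reticulum kinase PERK, read -0.06 (-0.31 to 0.19).

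**Figure D2:**
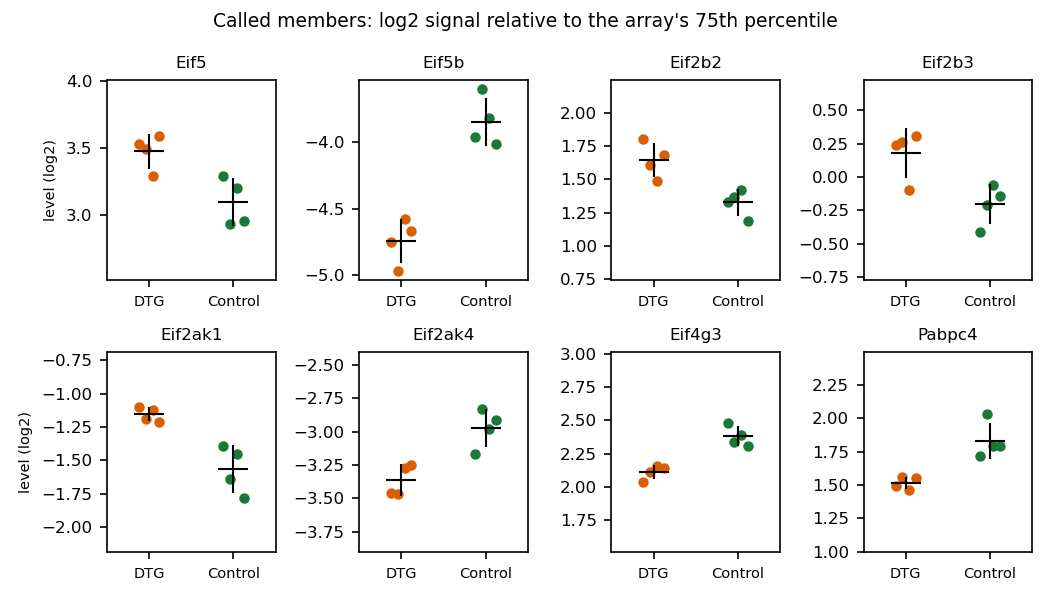
Level (vertical axis, log2 signal relative to the 75th percentile of the array) of the 8 called genes on each array, DTG left and Control right, with the mean and SD as bars. The groups are apart in Eif5b, Eif2b2, Eif2ak1, Eif2ak4, Eif4g3 and Pabpc4, and they meet or overlap in Eif5 and Eif2b3.

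Promoter sequence was searched for motifs that these genes have in common. RefSeq windows (GRCm38.p6), from 250 bases before to 50 after a start site, were at hand for 37 of the 46 genes. An ETS-type motif, CCGGAAG on either strand, was found in 11 of 37 (29.7%), against 9.93% of 27025 genes. The E-box CACGTG was found in 8 of 37 (21.6%), against 8.09%. An ETS-type match and an E-box cannot share bases. A gene counted where any of its windows held the motif, and some genes had several windows, such as Eif5a, which counts for both motifs. These shares were set against all genes with a window, not against genes of similar level or base content. TATAAA on either strand was found in 4 of 37 (10.8%), against 15.7%, and a start of C followed by 4 pyrimidines, as in mRNAs with a terminal oligopyrimidine tract, in 2 of 37 (5.41%), against 3.01%. Of the 8 called genes 7 had a window, and the ETS-type motif was in Eif2b2 and Eif2ak1. The sites below are shown since they are the motif in 2 called genes, in a further eIF2B gene, and in the genes for the cap-binding protein and its scaffold, with the motif in capitals and each read along the strand of its gene.
Eif2ak1, chr5:143817797-143817826, forward strand, motif from base 17, counting the start as 1: ctcttgtgttaCTTCCGGcttggggggagg
Eif2b2, chr12:85219486-85219515, forward strand, motif from base 17, counting the start as 1: cctctctcggcCCGGAAGtgaaacagtgct
Eif2b4, chr5:31193120-31193149, reverse strand: cccagtgcacgCCGGAAGttgtagtccgct
Eif4e, chr3:138527192-138527221, forward strand: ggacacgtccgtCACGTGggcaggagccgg
Eif4g1, chr16:20672661-20672690, forward strand: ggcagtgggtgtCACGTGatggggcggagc
Relative to the direction of the gene, Eif2ak1 carries the motif on the opposite strand from Eif2b2 and Eif2b4. A match is a stretch of letters and not evidence of binding.

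Genes listed for the integrated stress response, the programme that follows phosphorylation of eIF2, were mostly higher. The list also holds Impact and Gcn1, whose proteins act on the kinase GCN2 before that phosphorylation. Of 12 listed genes 7 rose, 1 fell and 4 did not pass, with a median change of 0.54, against -0.15 over all genes. Of all genes 11.2% were called higher and 21.3% lower. This list, like the others, was chosen with earlier results of these data known, so its counts are not an independent finding. Impact encodes an inhibitor of GCN2 activation. Its level was 2.70, 2.76, 2.47 and 2.62 on DTG arrays, against 1.56, 1.26, 1.21 and 1.29 on Control arrays (change 1.31, SE 0.11, adjusted p = 0.000194). Trib3 encodes a pseudokinase induced by ATF4 and CHOP. Its level was 1.81 ± 0.13 on DTG arrays and 0.74 ± 0.23 on Control arrays (SD, n = 4 each, limma change 1.07, SE 0.13, adjusted p = 0.000904). Sesn2, a stress-induced inhibitor of mTORC1, rose by 0.71 (SE 0.13, adjusted p = 0.00567). The groups did not overlap in any of these 3 genes. The remaining called genes are named here after their values were seen. Asns, asparagine synthetase, rose by 0.57, Ddit3, which encodes CHOP, by 0.53, and the eIF2 phosphatase subunits Ppp1r15b and Ppp1r15a by 0.52 and 0.43. Gcn1, which encodes the ribosome-bound activator of GCN2, fell by 0.48. Atf4, the central transcription factor, read 0.20 (-0.05 to 0.46) and did not pass, nor did Chac1, Atf3 and Ddit4. The count of higher genes was 11 of 12 on the spike-in scale, where 33.8% of all genes were higher and Gcn1 read -0.01, and it was 5 to 9 when single arrays were left out. The phosphorylation of eIF2 itself was not measured.

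**Figure D3:**
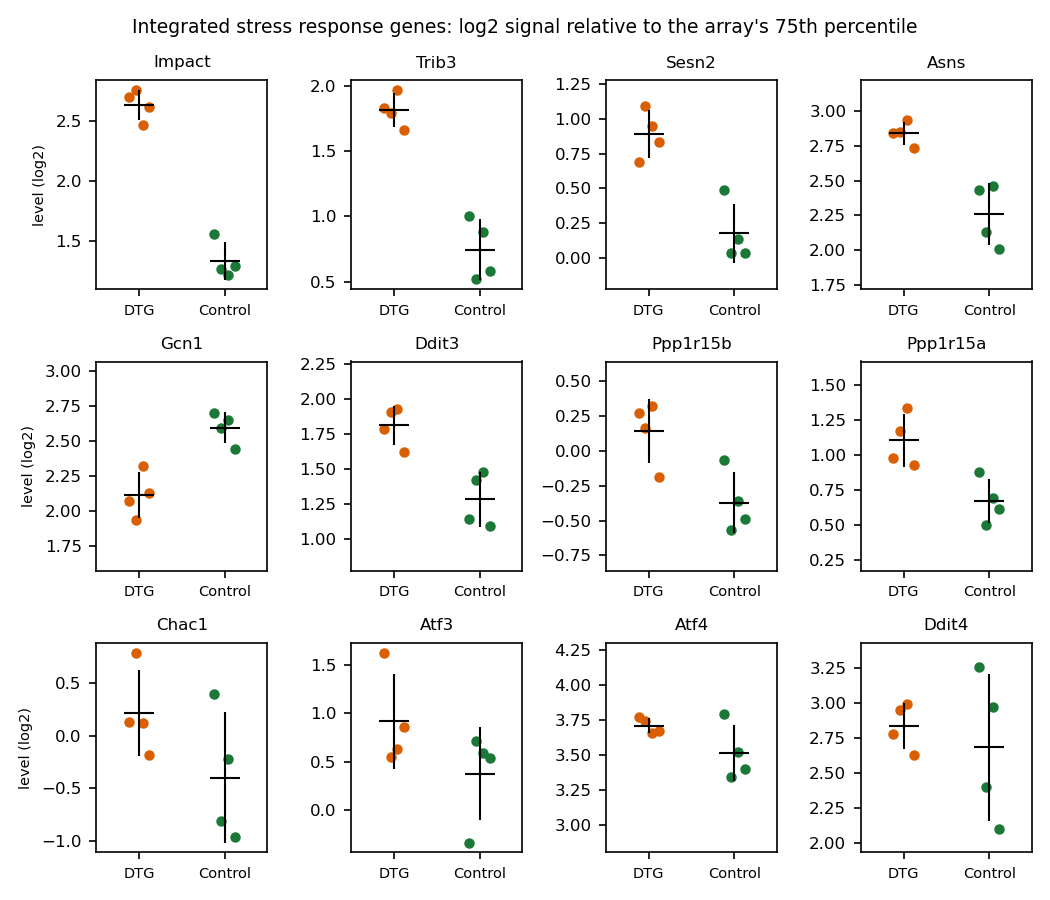
Level (vertical axis, log2 signal relative to the 75th percentile of the array) of the 12 integrated stress response genes on each array, DTG left and Control right, with the mean and SD as bars. Impact and Trib3 show the widest gaps, Gcn1 is lower in DTG, and the groups overlap in Ppp1r15b, Chac1, Atf3, Atf4 and Ddit4.

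None of the 13 eIF3 genes was called. eIF3 is the large scaffold that keeps the small ribosomal subunit ready for mRNA. The changes ran between -0.31 for Eif3a and 0.18 for Eif3c, with a median of -0.02. All 13 mean levels lay above the 75th percentile, between 0.74 and 3.90. At an unadjusted p under 0.05 the count was 1 of 13, against 7850 of all 17724 genes tested. That gene was Eif3b, a core subunit. Its level was 2.11, 1.88, 1.89 and 2.05 on DTG arrays, against 2.26, 2.21, 2.39 and 2.13 on Control arrays (change -0.27, SE 0.10, adjusted p = 0.0678). The groups of Eif3b did not overlap, nor did those of Eif3a. Eif3a, another core subunit, was at 0.84, 0.73, 0.19 and 0.77 on DTG arrays, against 0.96 and 0.92 on Control 1 and 4 (adjusted p = 0.281), with 2 Control spots left out for outlier flags. On the quantile scale Eif3c was called higher (change 0.31, adjusted p = 0.0160). On the spike-in scale 7 of the 13 were called higher, with a median of 0.45, where 33.8% of all genes were. The intervals of Eif3m, -0.16 to 0.22, and Eif3g, -0.12 to 0.29, were the narrowest among the 13.

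Cap-binding genes and the inhibitors of eIF4E did not pass. All 4 read below 0, but of all 17724 genes tested only 6286 read above 0. Of the 4, 3 lay above the all-gene median of -0.15. Eif4e, the cap-binding protein, was at 1.56, 1.34, 1.35 and 1.42 on DTG arrays, against 1.61, 1.36, 1.44 and 1.40 on Control arrays. The groups overlapped almost wholly, and the change was -0.03 (-0.25 to 0.18). Eif4e2 encodes 4EHP, a cap-binding relative that represses translation. Its brightest probe was at 2.85, 2.75, 2.77 and 2.73 on DTG arrays, against 2.95, 2.75, 3.04 and 2.63 on Control arrays (change -0.07, SE 0.11). A dimmer Eif4e2 probe went the other way, with levels of -2.25, -2.35, -2.29 and -2.29 on DTG arrays, against -2.78, -3.29, -3.07 and -3.32 on Control arrays. The change on that probe was 0.82 (SE 0.13, adjusted p = 0.00276 over all kept probes), so the probes of Eif4e2 disagree. Eif4ebp1 and Eif4ebp2 encode the proteins that hold eIF4E away from eIF4G until mTOR phosphorylates them. Eif4ebp1 was at 2.36, 2.22, 2.52 and 2.02 on DTG arrays, against 2.49, 2.46, 2.48 and 2.04 on Control arrays (change -0.09, -0.42 to 0.24). Eif4ebp2 was at 1.36, 1.59, 1.18 and 1.40 on DTG arrays, against 1.76, 1.86, 1.84 and 1.29 on Control arrays (change -0.30, -0.65 to 0.04). Control 4 alone lay within the DTG range of Eif4ebp2, and without that array Eif4ebp2 was called lower (-0.44, adjusted p = 0.0285).

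Of the 7 scaffold and helicase genes, Eif4g3 fell and the other 6 did not pass. Eif4g3 encodes a relative of eIF4G1 that also bridges cap and helicase. Its level was 2.04, 2.11, 2.16 and 2.14 on DTG arrays, against 2.48, 2.34, 2.39 and 2.31 on Control arrays. The groups did not overlap (change -0.27, SE 0.08, adjusted p = 0.0353), and a dimmer probe read -0.26. On the spike-in scale the change was 0.20, above 0. Eif4g1, the main scaffold and the partner of poly(A)-binding protein, was at 2.82, 2.99, 3.17 and 3.09 on DTG arrays, against 3.15, 2.83, 3.02 and 2.75 on Control arrays (change 0.08, -0.20 to 0.36). Eif4g2, which encodes a relative without the eIF4E-binding site, was at 2.64, 2.60, 2.18 and 2.58 on DTG arrays, against 2.01, 2.01, 2.19 and 2.46 on Control arrays (change 0.33, 0.00 to 0.66). DTG 3 was its only DTG array inside the Control range, and without that array Eif4g2 was called higher (0.44, adjusted p = 0.0424). The helicase genes Eif4a1 and Eif4a2 read -0.15 (-0.39 to 0.09) and -0.05 (-0.28 to 0.17). Eif4a1 was at 3.71, 3.67, 3.58 and 3.74 on DTG arrays, against 3.97, 3.67, 3.98 and 3.67 on Control arrays, and the groups overlapped. Eif4a2 was at 3.32, 3.29, 3.46 and 3.65 on DTG arrays, against 3.48, 3.46, 3.47 and 3.51 on Control arrays, which differed among themselves far less than the DTG arrays did. The helicase cofactors Eif4b and Eif4h read -0.22 (adjusted p = 0.0897) and 0.09.

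Among the genes for poly(A)-binding proteins and their partner, Pabpc4 fell and the other 3 of 4 did not pass. Pabpc1 encodes the main cytoplasmic poly(A)-binding protein, which Musashi1 is known to contact. Its level was 3.83, 3.74, 3.68 and 3.75 on DTG arrays, against 4.03, 3.85, 4.05 and 3.84 on Control arrays. The groups did not overlap, though DTG 1 nearly met Control 4, and the change was -0.19 (-0.40 to 0.01, adjusted p = 0.133). On the quantile scale Pabpc1 read 0.01. Pabpc4 encodes an inducible cytoplasmic relative. Its level was 1.49, 1.56, 1.46 and 1.55 on DTG arrays, against 1.72, 2.03, 1.79 and 1.79 on Control arrays. Every DTG array was below every Control array (change -0.31, SE 0.09, adjusted p = 0.0348), but the change was 0.15 on the spike-in scale and did not pass there or on the quantile scale. Pabpn1, the nuclear protein that sets tail length during polyadenylation, read -0.14 (-0.36 to 0.08). Paip1 encodes a partner of poly(A)-binding protein that favours translation. It was at -0.33, -0.30, -1.86 and -0.22 on DTG arrays, against -1.14, -2.08, -1.67 and -0.62 on Control arrays. DTG 3 lay among the Control arrays, the change was 0.70 (-0.28 to 1.68, adjusted p = 0.238), and another Paip1 probe read -0.24. Without DTG 3 Paip1 was called higher (1.09, adjusted p = 0.0369). Eif5a, which relieves stalled ribosomes, read 0.25 (adjusted p = 0.0849) with groups that did not overlap, and Eif6, which keeps the large subunit apart until it is mature, read 0.00.

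Within-array differences between related genes do not depend on the number by which an array is scaled. Over 5 pairs none passed by an exact two-sided permutation test, whose smallest possible p is 0.0286. After adjustment over the 5 pairs, a single pair at that smallest p could not fall under 0.05 alone. The test therefore cannot show that the difference within a pair is unchanged. The level of Eif4g1 exceeded that of Eif4g2 by 0.52 ± 0.35 on DTG and 0.77 ± 0.35 on Control arrays (SD, n = 4 each), a change of -0.25 (exact p = 0.371, adjusted over the 5 pairs 0.607). Pabpc1 minus Pabpc4 changed by 0.12 (exact permutation p = 0.400, adjusted 0.607), and Eif4ebp1 minus Eif4ebp2 by 0.22 (exact permutation p = 0.343, adjusted 0.607). Eif4a1 minus Eif4a2 changed by -0.10 and Eif4e minus Eif4e2 by 0.03 (exact permutation p = 0.486 and 0.743, adjusted 0.607 and 0.743). The last pair rests on the brightest Eif4e2 probe, and a dimmer Eif4e2 probe read 0.82. These are changes between probes of different genes, not ratios of transcript number.

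Genes that act beside initiation were called in both directions, against 11.2% of all genes called higher and 21.3% lower. Of 12 elongation and termination genes, 1 rose, 2 fell and 9 did not pass, a called share of 25.0%, against 32.5% of all genes. Eef2k, the kinase that slows elongation, had levels of -0.16, -0.05, -0.03 and -0.01 on DTG arrays, against 0.46, 0.99, 1.23 and 0.99 on Control arrays (change -0.98, SE 0.16, adjusted p = 0.00274). Gspt1, the release factor eRF3, fell by 0.45, and Eef1e1, a component of the tRNA synthetase complex, rose by 0.72. Of 10 further initiation factors tested of 11 listed, 1 fell, Eif2d, a factor that can deliver tRNA without GTP, by 0.53 (adjusted p = 0.00407). Of 16 partners of poly(A)-binding protein and deadenylases, 2 rose, 3 fell and 11 did not pass, a called share of 31.2%, near the 32.5% of all genes. The 3 were Cnot1, the scaffold of the CCR4-NOT deadenylase, which fell by 0.58 (SE 0.11, adjusted p = 0.00493), Pan2, the catalytic subunit of another deadenylase, by 0.52, and Cnot2, another CCR4-NOT subunit, by 0.40. Cnot7, a deadenylase subunit, rose by 0.59 and Paip2, an inhibitor of poly(A)-binding protein, by 0.26, both named after their values were seen. On the spike-in scale Eef2k, Eif2d, Cnot1, Pan2, Gspt1 and Cnot2 read -0.52, -0.06, -0.11, -0.06, 0.02 and 0.07, and none passed. Of 12 genes for mTOR complexes, their regulators and the MNK kinases, which act on eIF4E and its inhibitors, 1 rose, Mlst8, a subunit shared by the mTOR complexes, by 0.51 (adjusted p = 0.00356).

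The direction of the group depends on how arrays are made comparable. On the spike-in scale 27 of the 46 genes were higher and 0 lower, with a median of 0.47. Among the 27 were 7 of 13 eIF3 genes, 5 of 5 eIF2B genes, 3 of 4 scanning genes, 3 of 4 cap-binding and inhibitor genes, 3 of 7 scaffold and helicase genes and 0 of 4 poly(A)-binding genes. Over all genes the same scale gave a median of 0.32, with 33.8% called higher and 2.75% lower. With quantile scaling, 6 genes were higher (Eif1, Eif2ak1, Eif2b2, Eif2b3, Eif3c and Eif5) and 2 lower (Eif2ak4 and Eif5b), with a median of 0.13 against -0.09 over all genes. Of all 17724 genes tested, 2291 were called higher and 3263 lower with quantile scaling. The median of the 46 genes lay above that of all genes on each of these scales. Spike-in and 75th percentile scaling each subtract a single number per array, which moves all genes together. The difference was 0.15 on both, so they are not independent on this point. The spike-in spots, relative to the 75th percentile, read -1.57 ± 0.05 on DTG and -1.11 ± 0.22 on Control arrays (SD, n = 4 each, exact two-sided permutation p = 0.0286, and 0.0381 after that adjustment). Of the 4 genes called lower, Eif4g3, Pabpc4 and Eif2ak4 read above 0 on the spike-in scale and did not pass there.

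**Figure D4:**
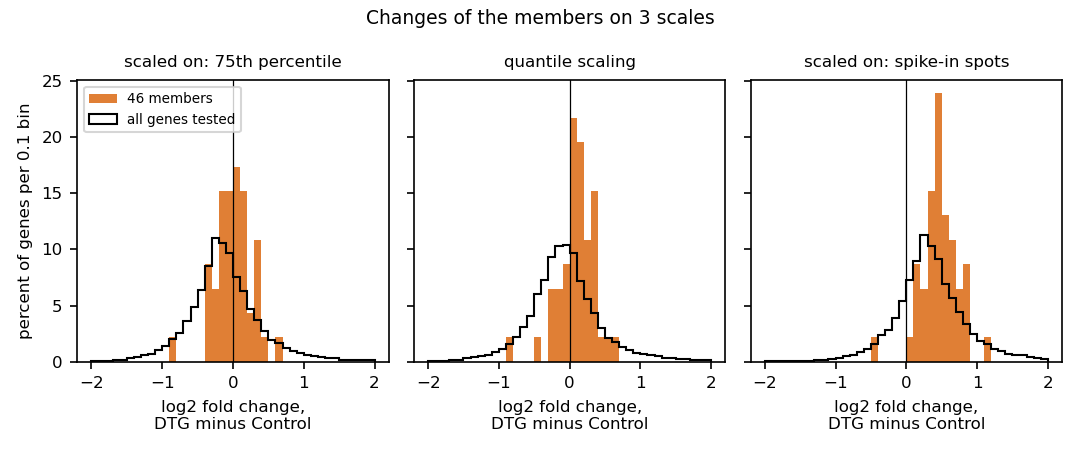
Distribution of changes (horizontal axis, log2, DTG minus Control) of the 46 genes (filled) and of all genes tested (outline), as percent of genes in each bin, under 75th percentile, quantile and spike-in scaling. The filled distribution is narrower than the outline, and its median moves between 0.01, 0.13 and 0.47.

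The genes also shared patterns between single arrays. Among the 45 genes with a value on every array, DTG 3 was the lowest DTG array for 20 (44.4%), against 23.3% of all genes. Control 1 and 3 both lay above Control 2 and 4 for 26 (57.8%), against 34.8% of all genes. Control 1 and 3 are also the Control arrays of low Xist signal. They had the lowest 75th percentiles of signal among Control arrays as well, 11.87 and 11.96 in log2, against 12.26 and 12.05 on Control 2 and 4. The part of either in this pattern was not tested. With the Xist class as a covariate, 3 of the 46 genes were called higher and 3 lower. The median SD of a gene over arrays was 0.11 in DTG and 0.15 in Control for these genes, against 0.18 and 0.19 for all genes.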

How the data were processed

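Total RNA of whole skin, 4 DTG and 4 Control samples, was amplified, labelled with Cy3 and hybridised to one-colour arrays, per the labels' protocols. The authors deposited each array's scanner table, which gives the brightness of a spot as a linear intensity. The software was Agilent Feature Extraction. The submitters' processing notes give its version as 10.7, whereas it is 11.5.1.1 in the file headers. Signals used here are background-corrected, per the file headers. The authors' deposited value table holds intensities of 43861 probes, and 99.6% of its values matched the processed signal to a relative tolerance of 0.001. It is therefore linear, not centred and not scaled between arrays, its column medians are 851 to 1.14e+03, and it was used as an alternative.

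The 46 genes and the other gene lists were chosen with earlier results of these data known. Accessions were matched to a RefSeq gene table (GRCm38.p6), which named 26762 of 55681 probes (48.1%). From each log2 signal the 75th percentile of its array, taken over probes that are no controls, was subtracted. Outlier-flagged spots (0.744% of values) were left out, and spots of a probe were averaged. Probes were kept where well above background on at least 3 of 4 arrays of a group, which holds for all 65 probes of the 46 genes, and the brightest kept probe stood for a gene. Of the 16 genes with several kept probes, 9 had probes whose changes differed in sign, and 0 had probes called in both directions. No level of these genes was saturated. The groups were compared on all 8 arrays with limma, version 3.58.1 (lmFit, eBayes, two-sided), in R 4.3.3, with Benjamini-Hochberg adjustment over 17724 genes. The fit was tested on simulated data. Pairs of related genes were compared by exact permutation tests. Intervals are 95% intervals of the fit, and the number of arrays limits their precision. Array pairs correlated at 0.984 to 0.990 within DTG, 0.981 to 0.992 within Control and 0.960 to 0.978 between groups, across probes, which are not independent replicates. Values on every array are given for called genes and for the 5 pairs, and outside the 46 genes up to 3 called genes of each list with the smallest p are named, beside others said to be named after their values were seen. Alternatives were 4 other scalings, normexp background correction with offset 50 on median signals, the authors' table, 2 other filters, averaged probes, outlier-flagged spots kept, slide column and Xist class as covariates, the arrays of high Xist alone, and leaving out each array. Unnamed probes were not analysed here.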

Additional observations from a re-analysis of the deposited data

Results flagged for a closer look

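Of 91 groups of 4 arrays checked, 1 array stood far from the other 3 of its group in 10. Chance gives about 1 in 20 groups. DTG 3 was the lowest DTG array in 6 of the 10. Its level was -0.10 for Eif2b3, against 0.24 to 0.31 on the other DTG arrays. It was 0.61 for Eif2b5 (others 0.77 to 0.80), 0.19 for Eif3a (0.73 to 0.84) and 2.85 for Eif3f (3.05 to 3.08). It was 2.18 for Eif4g2 (2.58 to 2.64) and -1.86 for Paip1 (-0.33 to -0.22). Without DTG 3, 6 of the 46 genes were called higher and 2 lower, and the genes gained were Eif4g2 and Paip1. Eif4h was lowest on DTG 1, at 2.92 against 3.12 to 3.14, and Eif1a on DTG 2, at 2.18 against 2.27 on the others. Among Control arrays, Eif3g was highest on Control 3, at 3.61 against 3.43 to 3.45, and Eif4ebp1 was lowest on Control 4, at 2.04 against 2.46 to 2.49.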

How the results depend on the processing

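The counts of 4 higher and 4 lower genes of 46 are fragile. Lower calls numbered 2 with quantile scaling, 1 without scaling and 0 with spike-in scaling, where 27 genes were higher. Higher calls numbered 2 with median scaling and 2 with normexp. With slide column as a block the counts were 1 higher and 1 lower, and on the arrays of high Xist alone, 3 DTG and 2 Control, 1 and 1. Leaving out single arrays gave 1 to 6 higher and 1 to 3 lower. The count of higher stress response genes, 7, was 11 with spike-in scaling and 5 to 9 without single arrays. Its alternatives were chosen after seeing the data. With spike-in scaling, which shifts all genes, 21 of the 22 genes that read below 0 read above it, the exception being Eif5b. Of the 21, 10 were called on 1 of these scales, with spike-in changes for Eif2ak3 (0.41), Eif2ak4 (0.08), Eif3d (0.43), Eif3j1 (0.36), Eif3l (0.45), Eif4e (0.43), Eif4e2 (0.40), Eif4ebp1 (0.38), Eif4g3 (0.20) and Pabpc4 (0.15). With averaged probes Eif4e2 read 0.30 and was called higher. That average includes a dim probe that was well above background on 0 of 4 DTG arrays. Eif2ak1 stayed called in all 21 alternatives (0.34 to 0.88), and Eif5b in 20 (-0.95 to -0.43). The 5 pairs did not pass under the alternatives run, where few arrays again limit what a single pair could reach. The labels give no replicate numbers that pair arrays. The numbers used here follow deposit order and equal slide column, so the block above pairs arrays by their place on the slide. Signal over background was lower on DTG arrays, which limits dim probes such as that of Eif5b most.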

Other observations

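Eif2s3x, the X-linked gene for the gamma subunit of eIF2 and not among the 46 genes, varied widely between Control arrays. Its level was 1.96, 2.33, 1.56 and 1.37 on DTG arrays 1 to 4, against 2.52, 0.17, 2.46 and 0.46 on Control arrays 1 to 4. The highest value in each group lay on arrays of low Xist signal: DTG 2 among DTG arrays, and Control 1 and 3 among Control arrays. The change between groups was 0.41 (SE 0.56, limma adjusted p = 0.602) and did not pass. This gene was singled out after its values were seen.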
